A study of Mus musculus with 14 samples.

Results

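The 10 genes described here encode transcription factors of undifferentiated mouse embryonic stem cells (ESC): Pou5f1, Nanog and Sox2, often called the core factors, and Zfp42, Esrrb, Klf2, Klf4, Klf5, Tbx3 and Tfcp2l1, which mark the naive state. They were taken by gene symbol, with no use of their measured values, as 10 of the 18194 genes and 21 of the 45101 probe sets on the array, and none of the 21 probe sets was shared with another symbol. Gene expression was measured with Affymetrix arrays in ESC and in embryoid bodies (EB), the clusters that ESC form as they differentiate, and the title of the series names its subject as differentiation and exit from the cell cycle without the Rb gene family. TKO is not spelled out in the labels. It is read here, from the series title, as a triple knockout of Rb1, Rbl1 and Rbl2, the genes of the pocket proteins that restrain E2F factors. Of the 14 arrays, 5 were TKO EB, made from 2-55-2, 14-14-4, 7-4-1, Dutch and Ta1-12 cells, and 3 were WT EB, made from B21, J1 and R1 cells. A further 3 were TKO ESC of 7-4-1, Dutch and Ta1-12, and the last 3 were WT ESC of B21, J1 and R1. Each array of a group came from another line, so the spread within a group is the spread between lines. The sources used here do not give how the alleles were made, the strain of the lines or the day at which EB were collected.

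In mouse ESC, Oct4 (the protein of Pou5f1) and Sox2 bind DNA side by side at an octamer and a SOX element, and together with Nanog they sustain their own genes and each other's. The naive factors connect this core to outside signals: Klf4 and Tfcp2l1 act downstream of LIF and STAT3, Esrrb responds to inhibition of GSK3, and Tbx3, Klf2 and Klf5 share parts of the same network. As ESC differentiate these genes are normally silenced, while some of them are used again in other tissues, Sox2 in the neural tube, Klf4 and Klf5 in epithelia and Klf2 and Klf4 in endothelium.

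The windows around the annotated start sites are shown because the binding letters of the factors themselves can be read in some of them. Whether these letters bear on how the genes moved across the arrays was not tested. RefSeq (build GRCm38.p6) gave 11 windows for 8 of the 10 genes, each of 300 bases, running from 250 bases before to 50 bases after a start site. A single window is printed for each of the core factors and for Zfp42, in the direction of the gene. Capitals mark matches on either strand to the octamer core ATGCAAA, to the full octamer ATGCAAAT or to the octamer end beside a SOX core, GCATNACAA, and these matches may overlap.
Nanog, chr6:122707239-122707538, plus strand: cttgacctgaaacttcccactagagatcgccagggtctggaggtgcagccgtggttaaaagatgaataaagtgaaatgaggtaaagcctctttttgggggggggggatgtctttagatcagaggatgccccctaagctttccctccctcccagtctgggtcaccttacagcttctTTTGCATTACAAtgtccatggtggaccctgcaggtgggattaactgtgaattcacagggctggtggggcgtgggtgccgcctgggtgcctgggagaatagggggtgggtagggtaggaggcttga
Sox2, chr3:34649745-34650044, plus strand: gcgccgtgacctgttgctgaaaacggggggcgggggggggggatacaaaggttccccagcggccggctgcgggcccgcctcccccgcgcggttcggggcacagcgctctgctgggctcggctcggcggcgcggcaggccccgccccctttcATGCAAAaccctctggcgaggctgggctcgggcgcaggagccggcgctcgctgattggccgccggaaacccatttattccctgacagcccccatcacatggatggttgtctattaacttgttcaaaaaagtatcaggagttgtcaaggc
Zfp42, chr8:43306960-43307259, minus strand: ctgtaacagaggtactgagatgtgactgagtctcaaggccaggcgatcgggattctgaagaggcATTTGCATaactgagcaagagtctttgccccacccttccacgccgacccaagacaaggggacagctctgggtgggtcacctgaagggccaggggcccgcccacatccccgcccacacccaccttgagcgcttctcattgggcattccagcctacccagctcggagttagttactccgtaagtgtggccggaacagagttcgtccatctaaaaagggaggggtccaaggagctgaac
Pou5f1, chr17:35505782-35506081, plus strand: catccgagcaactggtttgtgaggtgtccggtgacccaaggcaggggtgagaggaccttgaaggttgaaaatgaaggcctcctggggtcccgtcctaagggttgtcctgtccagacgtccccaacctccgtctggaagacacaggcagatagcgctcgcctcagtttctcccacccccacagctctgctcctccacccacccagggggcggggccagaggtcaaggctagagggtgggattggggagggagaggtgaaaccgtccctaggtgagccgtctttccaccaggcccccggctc

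The octamer beside the SOX core was found in both windows of Nanog, which overlap and share the match, and in no window of another member, and in 0.731% of all 32851 windows. In the window printed it began 72 bases before the start site. The octamer core was found in the windows of Nanog, Sox2 and Zfp42 and in 4.63% of all windows, and the full octamer in Zfp42 alone among the members and in 1.74% of all. The SOX core ACAAT, also searched on both strands, lay in windows of Nanog, where it overlaps the match just described, of Esrrb and of Pou5f1 (in a window not printed), and in 31% of all windows. A KLF motif, GGGNGTGG, lay in 5 of the 11 windows, those of Nanog (both), Pou5f1, Tfcp2l1 and Zfp42, and in 17.6% of all. The ESRRB motif CAAGGTCA (1.56% of all windows) and the E2F motifs TTTCGCGC (0.323%) and TTTGGCGC (0.514%) were found in none of the 11. A match is a run of letters and not a measured binding site, and the distal enhancers of these genes lie outside the windows.

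Values are deposited intensities. Levels of different probe sets have no common scale, so each gene is compared only with itself between arrays. Sums over a list of markers are likewise compared only between arrays, and the brightest probe sets weigh most in them. An intensity under 32 was treated as 32 (the floor) before taking log2. All 10 genes were tested, among 14360 genes. The gene stood by its probe set of highest mean, and 4 other member probe sets, which were dim in nearly all arrays, did not pass the filter on low values (1 of Klf5, 2 of Tbx3 and 1 of Tfcp2l1). In samples of whole cultures, fewer cells of a type and less RNA per cell cannot be told apart. The targeted gene Rbl1 had an intensity of 31.7, 15.9, 38.3, 377 and 1096 in TKO EB 2-55-2, 14-14-4, 7-4-1, Dutch and Ta1-12, against 586, 1090 and 493 in WT EB B21, J1 and R1. In ESC it had 24.5, 250 and 493 in TKO lines 7-4-1, Dutch and Ta1-12, against 694, 462 and 356 in WT lines B21, J1 and R1. The arrays labelled TKO Ta1-12 therefore lay in or just above the WT range and those labelled TKO Dutch between the WT range and the other TKO lines, and the results that rest on these lines are given with and without them. None of Rb1, Rbl1 and Rbl2 passed the test between TKO and WT at either stage (adjusted p of Rbl1 0.345 in EB and 1 in ESC), and the sources used here do not say whether any of these probe sets lies in a deleted part.

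The ESC of both genotypes carried all 10 factors. Pou5f1 had 11053, 11814 and 12950 in TKO ESC 7-4-1, Dutch and Ta1-12, against 11681, 10972 and 9880 in WT ESC B21, J1 and R1. Nanog had 7931, 8765 and 7474 in the TKO ESC lines, against 10947, 7894 and 6331 in the WT ESC lines. The groups overlapped for both genes, and they overlapped for every other member as well. Among naive factors, Esrrb, an orphan nuclear receptor, had 5501, 7189 and 5004 in the TKO ESC lines and 5534, 4530 and 2470 in the WT ESC lines. Tbx3, a T-box factor, had 610, 1189 and 1511 in the TKO ESC lines and 2585, 1103 and 354 in the WT ESC lines. WT ESC R1 was the lowest of the 6 ESC arrays for 9 of the 10 members, Klf5 being the exception.

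Between TKO ESC and WT ESC, 0 of the 10 members and 0% of all genes passed an adjusted p of 0.05 by limma. At an unadjusted p under 0.05 there were 0 members and 2.74% of all genes. The log2 fold changes ran from -0.02 ± 1.51 for Nanog to 0.56 ± 1.44 for Esrrb and 0.56 ± 0.74 for Klf4 (standard errors, n = 3 and 3). The 95% interval of Pou5f1 was -3.29 to 3.57 in this fit, whose spread also draws on the EB, and -0.09 to 0.37 with the ESC arrays alone. With the ESC arrays alone the interval of Nanog was -0.57 to 0.52 and that of Sox2 -0.12 to 0.36, while that of Tbx3 stayed at -2.03 to 2.11. No member differed without overlap between the genotypes, beside 4.63% of all genes higher and 6.83% lower without overlap in TKO ESC. The median change of the members was 0.21, beside -0.02 over all genes tested.

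**Figure D1:**
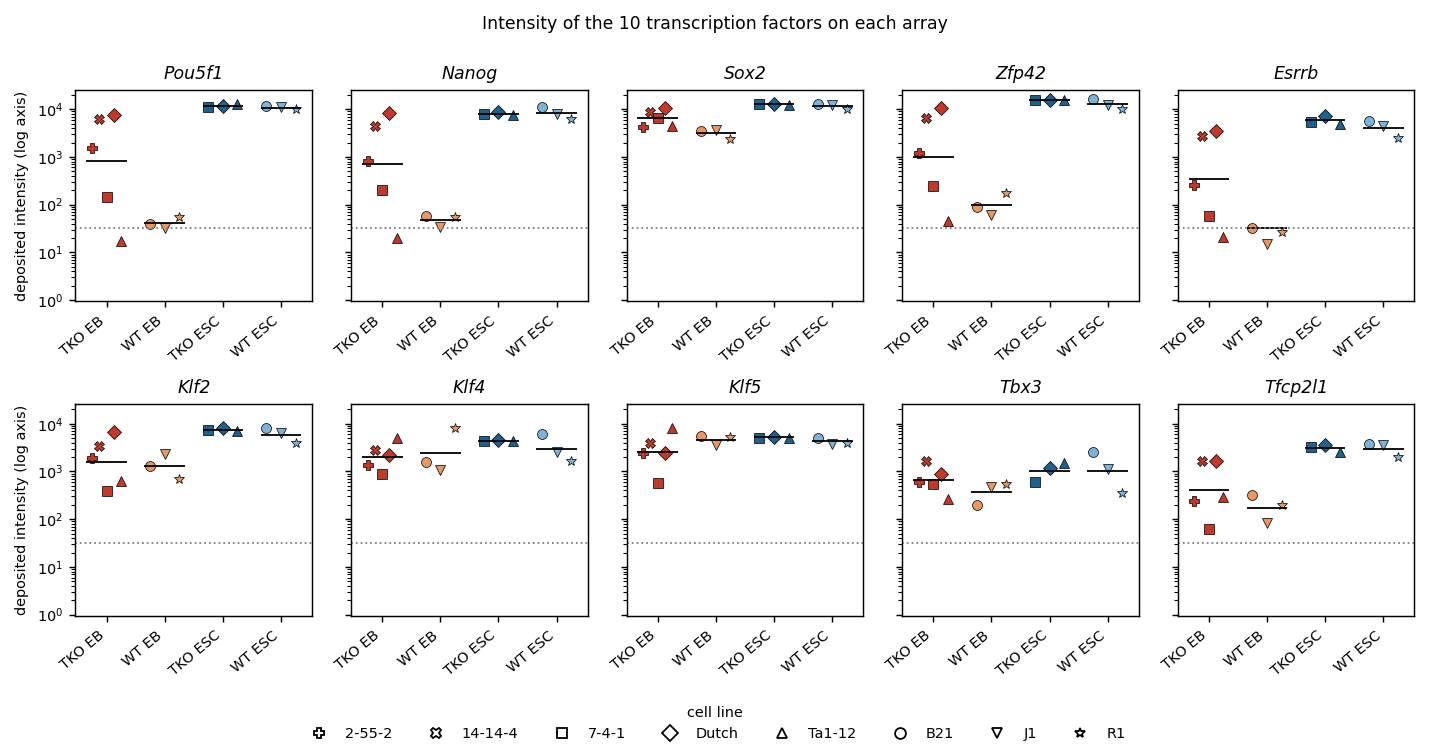
Deposited intensity (log axis) of the 10 genes on each of the 14 arrays, by group, with a symbol for each cell line, a bar at the mean of the floored log2 values and a dotted line at the floor of 32. In TKO EB Pou5f1 spans 17.1 to 7410, whereas in WT EB it lies between 32.8 and 55.2, near the floor.

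EB of both genotypes had less of most of these factors than ESC, to unequal degrees. In TKO EB, Pou5f1, Nanog, Zfp42 and Esrrb ranged, depending on the line, between the WT EB level and values near those of ESC. In WT EB, Pou5f1, Nanog and Esrrb were at 56.8 or less on each array, Zfp42 was at 61.1 to 176 and Tfcp2l1 was below all ESC, while Sox2 stayed bright and Klf4 and Klf5 overlapped the ESC values.

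Pou5f1, the POU-domain gene of Oct4, had 1542, 6133, 147, 7410 and 17.1 in TKO EB 2-55-2, 14-14-4, 7-4-1, Dutch and Ta1-12, against 38.8, 32.8 and 55.2 in WT EB B21, J1 and R1. Nanog, a homeobox factor, had 823, 4333, 203, 8417 and 20.3 in the TKO EB lines in the same order, against 56.8, 33.6 and 54.8 in the WT EB lines. Both genes were brightest in Dutch, above all WT EB in 4 of the 5 TKO EB, and under the floor and below all WT EB in the array labelled TKO Ta1-12. Zfp42, also called Rex1, a zinc finger gene much used as a marker of undifferentiated cells, had 1189, 6445, 241, 10697 and 46.0 in the TKO EB lines, against 90.2, 61.1 and 176 in the WT EB lines. Esrrb had 254, 2716, 56.9, 3482 and 21.3 in the TKO EB lines, against 31.6, 14.7 and 26.3 in the WT EB lines. The 4 genes shared 1 order over the TKO EB, from the highest: Dutch, 14-14-4, 2-55-2, 7-4-1, Ta1-12.

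In WT EB against WT ESC, 6 of the 10 members fell and 0 rose by limma, where 17.4% of all genes fell, 26.5% rose and 43.9% changed in either direction. Pou5f1 changed by -8.03 ± 1.58 on the log2 scale (adjusted p = 0.00204, n = 3 and 3). Nanog changed by -7.44 ± 1.51 (adjusted p = 0.0024) and Zfp42 by -7.00 ± 1.52 (adjusted p = 0.00343). The change of Esrrb, -6.95 ± 1.44 (adjusted p = 0.00267), is a lower bound on its fall, since it was under the floor in all 3 WT EB. The standard errors include the spread of TKO EB, and with the WT arrays alone that of Pou5f1 was 0.24. Without overlap between the arrays 7 members were lower, these 4 with Sox2, Tfcp2l1 and Klf2, where 25.2% of all genes were. The median change of the members was -3.14, beside 0.13 over all genes tested.

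Sox2, the SOX partner of Oct4 and also a factor of neural progenitors, stayed bright in all EB. It had 4196, 8581, 6558, 10809 and 4485 in TKO EB 2-55-2, 14-14-4, 7-4-1, Dutch and Ta1-12, against 3479, 3600 and 2378 in WT EB B21, J1 and R1. In ESC it had 12836, 12694 and 12078 in TKO lines 7-4-1, Dutch and Ta1-12, against 12550, 12116 and 10070 in WT lines B21, J1 and R1. Only Dutch among the EB reached the ESC range, and every TKO EB lay above every WT EB. Sox2 changed by -0.95 ± 0.27 in TKO EB against TKO ESC (adjusted p = 0.0155, n = 5 and 3), and by -1.89 ± 0.30 in WT EB against WT ESC (adjusted p = 0.000662, n = 3 and 3). Among the EB, the summed intensity of 11 neural progenitor markers was highest in TKO EB 7-4-1 (21020, beside 2844 to 9009 in the other TKO EB and 4139 to 11306 in WT EB), an array with 6558 for Sox2 and 147 for Pou5f1. Dutch and 14-14-4, the EB with the most Sox2 (10809 and 8581), had neural sums of 3742 and 2844. WT EB J1 had the next highest neural sum (11306) beside a Sox2 of 3600. The neural sum and Sox2 thus did not share their order over the EB. The part of neural cells in the Sox2 values was not tested.

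Tfcp2l1, a CP2-family factor downstream of LIF, had 237, 1663, 62.2, 1678 and 296 in TKO EB 2-55-2, 14-14-4, 7-4-1, Dutch and Ta1-12, against 319, 81.9 and 198 in WT EB B21, J1 and R1. All ESC lay higher, at 2592 to 3596 in TKO ESC and 1967 to 3773 in WT ESC. It fell by 2.92 ± 0.90 on the log2 scale in TKO EB against TKO ESC (adjusted p = 0.0235) and by 4.10 ± 1.01 in WT EB against WT ESC (adjusted p = 0.00644). Its other tested probe set also fell, with -2.08 ± 0.29 in TKO EB (adjusted p = 0.000258) and -2.60 ± 0.32 in WT EB (adjusted p = 0.000184), the last a bound because it was under the floor in all 3 WT EB. Among all probe sets tested singly, 16.9% fell in TKO EB and 17.6% in WT EB. Of the TKO EB, only 14-14-4 and Dutch exceeded all WT EB in Tfcp2l1.

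The 3 Krüppel-like factors did not follow each other. Klf2, a zinc finger factor of naive ESC and of endothelium under flow, had 1903, 3455, 386, 6713 and 624 in the TKO EB lines, against 1333, 2372 and 690 in the WT EB lines. It lay below ESC on all 8 EB arrays of its own genotype, with 7209 to 7963 in TKO ESC and 3981 to 7991 in WT ESC. Klf2 fell by 2.23 ± 0.76 in TKO EB against TKO ESC (adjusted p = 0.0365), whereas its change of -2.17 ± 0.85 in WT EB against WT ESC missed the threshold (adjusted p = 0.0546) and passed with the WT arrays alone (adjusted p = 0.0102).

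Klf4, a zinc finger factor used in reprogramming, had 1335, 2852, 874, 2205 and 5018 in TKO EB 2-55-2, 14-14-4, 7-4-1, Dutch and Ta1-12, against 1583, 1100 and 8111 in WT EB B21, J1 and R1. The array labelled TKO EB Ta1-12 exceeded its own ESC (4254), and WT EB R1 its own (1686), and these were the 2 brightest EB. Klf4 had a log2 change of -1.08 ± 0.66 in TKO EB (adjusted p = 0.22) and of -0.28 ± 0.74 in WT EB (adjusted p = 0.774), each against ESC, and another probe set gave -1.19 ± 0.69 in TKO EB and -0.19 ± 0.77 in WT EB. Without WT EB R1 the WT change was -1.16, and without WT EB J1 it was 0.28, so the sign turned with the array left out.

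Klf5, a zinc finger factor of ESC and of gut and skin epithelium, had 2495, 3879, 586, 2475 and 8031 in the TKO EB lines, against 5420, 3624 and 5169 in the WT EB lines. In ESC it had 5010 to 5354 in TKO and 3815 to 5040 in WT. Its change was -1.0 ± 0.58 in TKO EB (adjusted p = 0.194) and 0.13 ± 0.65 in WT EB (adjusted p = 0.883), each against ESC. The interval of the WT change with the WT arrays alone was -0.32 to 0.58, and the sign turned under quantile normalization (-0.03), centring on array medians (-0.08) and the median of probe sets (-0.30). Without TKO EB Ta1-12 the TKO change was -1.41 and passed. Another probe set gave -1.40 ± 0.54 in TKO EB and -0.30 ± 0.61 in WT EB.

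Tbx3 had 593, 1696, 537, 901 and 265 in TKO EB 2-55-2, 14-14-4, 7-4-1, Dutch and Ta1-12, against 201, 466 and 559 in WT EB B21, J1 and R1. These values overlap the ESC values of both genotypes, and 6 of the 8 EB lay in the ESC range. Its change was -0.63 ± 0.66 in TKO EB (adjusted p = 0.476) and -1.42 ± 0.74 in WT EB (adjusted p = 0.134), each against ESC. Without WT ESC R1, where Tbx3 was 354, it was -2.17 in WT EB and passed. Of its 5 probe sets, 3 were tested, and the other tested ones gave -0.66 ± 0.63 and -0.46 ± 0.51 in TKO EB, and -1.05 ± 0.70 and -0.58 ± 0.57 in WT EB.

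**Figure D2:**
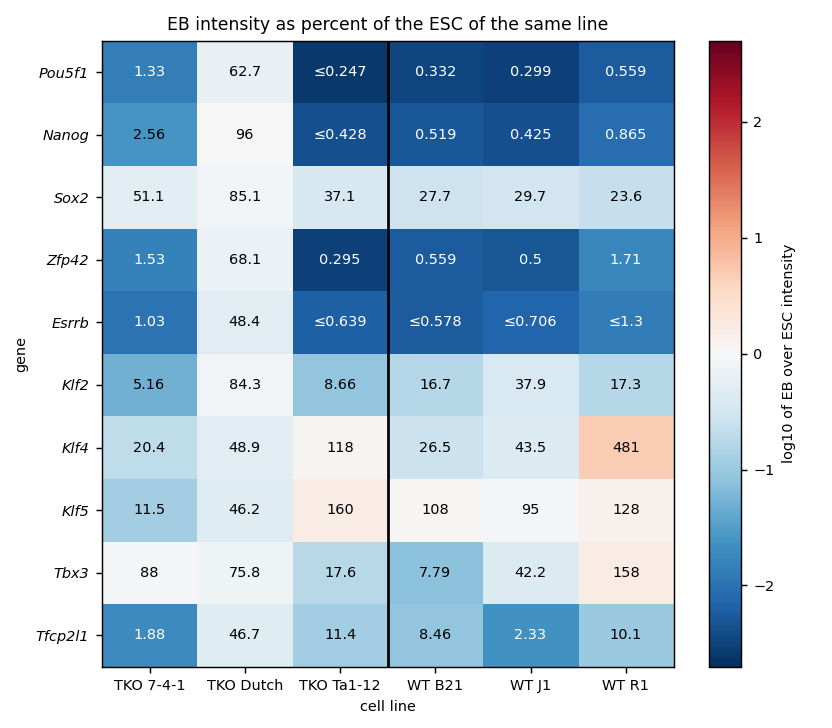
EB intensity as percent of the ESC intensity of the same line, for the 10 genes (down) and the 6 lines measured at both stages (across, TKO left and WT right), coloured by log10 of the ratio, with ≤ where the EB lay under the floor. TKO Dutch keeps 96% of Nanog and 62.7% of Pou5f1, TKO 7-4-1 keeps 2.56% and 1.33%, and WT R1 has 481% of its ESC Klf4.

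The 6 lines measured at both stages let EB be read against their own ESC. In Dutch, Nanog stood at 96% of the ESC value, Sox2 at 85.1%, Klf2 at 84.3%, Zfp42 at 68.1%, Pou5f1 at 62.7% and Esrrb at 48.4%. In TKO 7-4-1, whose Rbl1 was near the floor, Pou5f1 stood at 1.33%, Nanog at 2.56%, Zfp42 at 1.53% and Esrrb at 1.03%, while Sox2 stood at 51.1%. In the line labelled TKO Ta1-12, Pou5f1 stood at 0.247% or less and Zfp42 at 0.295%, below each WT line (0.299% to 0.559% for Pou5f1, and 0.5% to 1.71% for Zfp42). The 3 TKO lines thus spanned the whole range from near retention to near loss of the same genes. Sox2 was the core factor with the narrowest spread, at 37.1% to 85.1% in TKO lines and 23.6% to 29.7% in WT lines. Klf5 stood at 95% to 128% in the WT lines, and at 11.5%, 46.2% and 160% in TKO 7-4-1, Dutch and Ta1-12.

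In TKO EB against TKO ESC, 6 of the 10 members fell and 0 rose by limma, where 15% of all genes fell, 21% rose and 36% changed in either direction. These were Pou5f1 (-3.90 ± 1.42, adjusted p = 0.0472), Zfp42 (-4.0 ± 1.36, adjusted p = 0.0364) and Esrrb (-4.11 ± 1.29, adjusted p = 0.0257), with Sox2, Klf2 and Tfcp2l1 above (n = 5 and 3). Nanog, at -3.48 ± 1.35, missed the threshold (adjusted p = 0.0614). It passed narrowly, at -4.41 ± 1.27, with the line as a replicate block, over the 6 lines that have ESC and EB arrays. That fit gave 7 calls, where 22.4% of all genes passed in either direction. The other tested probe sets of Esrrb gave -2.50 ± 0.68 and -3.47 ± 0.78 in TKO EB, and -3.53 ± 0.76 and -4.01 ± 0.87 in WT EB, and all 4 of these passed. The same 6 members were lower without overlap, where 14.6% of all genes were. The median change of the members was -2.58, beside 0.09 over all genes tested.

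The call of Pou5f1 was close to the threshold: it was past it in 2 of 14 fits that left out 1 array, WT arrays included (adjusted p up to 0.117), and in 7 of the other 14 alternatives (adjusted p up to 0.162), with a change below 0 in each. The TKO count rested on single arrays. The share of all genes passing in either direction, 36% in the main fit, moved too and is given beside each count. The count was 0 without TKO ESC 7-4-1 (25.5%) and 0 without TKO ESC Dutch (26%). It was 1 (Sox2) without TKO ESC Ta1-12 (25.2%) or with only the TKO arrays (27.2%). It was 2 without TKO EB 2-55-2 (Sox2 and Esrrb, 30.8%) and 2 without TKO EB 7-4-1 (Sox2 and Tfcp2l1, 32.8%). With no filter on dim probe sets it was 3 (26.8%). It was 7, with Nanog added, without TKO EB 14-14-4 (34.7%) or without TKO EB Dutch (43.9%). Without the line Ta1-12 at both stages, and also without both Ta1-12 and Dutch, it was 0, where 22.1% and 19% of all genes passed. In those fits Pou5f1 changed by -2.67 ± 1.20 (adjusted p = 0.132) and -3.31 ± 1.53 (adjusted p = 0.162). The count in WT EB against WT ESC was 6 or 7 when any 1 array was left out, where 32.5% to 47.4% of all genes passed.

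**Figure D3:**
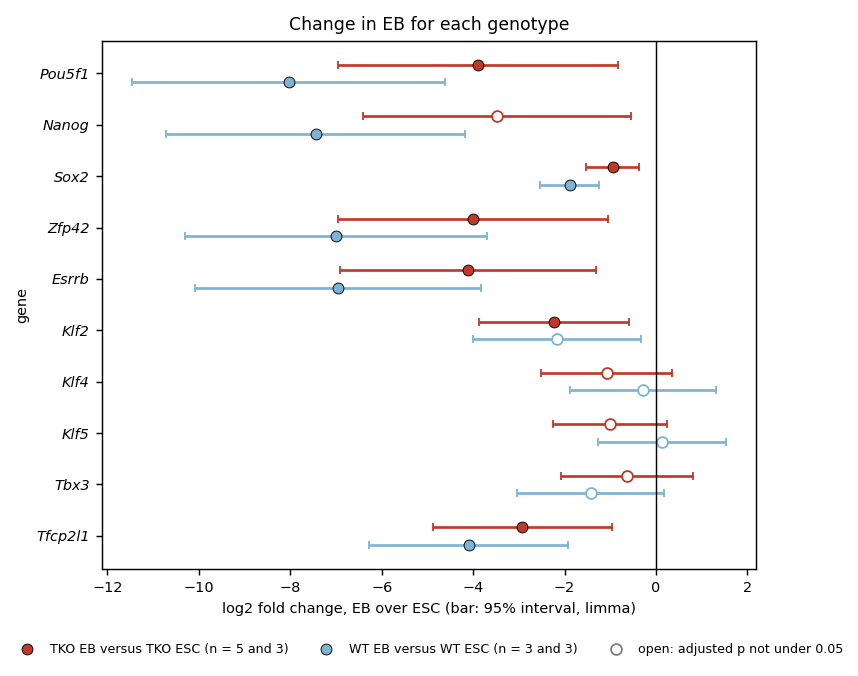
Log2 fold change of EB over ESC (x axis) for the 10 genes (y axis), TKO above WT, with 95% intervals from limma; filled points passed an adjusted p of 0.05. Pou5f1 lies at -3.90 in TKO and at -8.03 in WT, and the intervals of the 2 genotypes overlap for every gene.

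The difference between the TKO and the WT change (the interaction) was tested directly. It passed for 0 members and 0% of all genes by limma, and at an unadjusted p under 0.05 for 1 member, Sox2, and 3.61% of all genes. Sox2 had an interaction of 0.94 ± 0.40, meaning a smaller fall in TKO (adjusted p = 0.975). Pou5f1 had 4.14 ± 2.12 and Nanog 3.96 ± 2.03, with 95% intervals of -0.46 to 8.74 and -0.43 to 8.35. Klf2 had -0.06 ± 1.14, Klf4 -0.80 ± 0.99 and Klf5 -1.13 ± 0.87. The median over the members was 1.06, beside -0.05 over all genes.

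In TKO EB against WT EB, no member and 0% of all genes passed by limma, and 5 members and 14.1% of all genes had an unadjusted p under 0.05. The 5 were Pou5f1 (4.28 ± 1.42, adjusted p = 0.304), Nanog (3.94 ± 1.35, adjusted p = 0.305), Esrrb (3.40 ± 1.29, adjusted p = 0.316), Zfp42 (3.31 ± 1.36, adjusted p = 0.327) and Sox2 (1.06 ± 0.27, adjusted p = 0.304), with n = 5 and 3. Only Sox2 was higher in TKO EB without overlap, where 0.815% of all genes were, and no member was lower without overlap, where 3.04% were. Pou5f1 and Nanog were higher in 4 of the 5 TKO EB than in any WT EB, and Klf2, Klf4, Klf5, Tbx3 and Tfcp2l1 had changes of -0.86 to 1.26, each with a 95% interval that held 0.

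**Figure D4:**
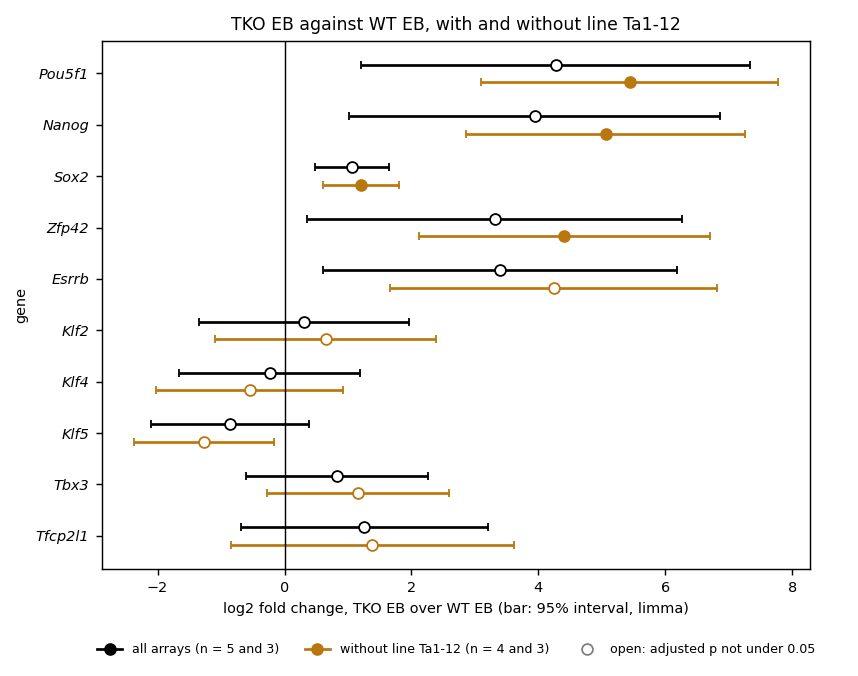
Log2 fold change of TKO EB over WT EB (x axis) for the 10 genes (y axis), with 95% intervals from limma, over all arrays (upper, black) and without the line Ta1-12 (lower, brown); filled points passed an adjusted p of 0.05. Of the 2 fits drawn, Pou5f1, Nanog, Sox2 and Zfp42 pass in the one without Ta1-12, which was the lowest TKO EB for Pou5f1, Nanog and Zfp42.

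Without the line Ta1-12, whose Rbl1 lay in the WT range in ESC and just above it in EB, 4 members were higher in TKO EB than in WT EB, where 7.64% of all genes passed in either direction. Pou5f1 rose by 5.44 ± 1.06 (adjusted p = 0.016), Nanog by 5.06 ± 1.00 (adjusted p = 0.0163), Zfp42 by 4.41 ± 1.04 (adjusted p = 0.0299) and Sox2 by 1.20 ± 0.27 (adjusted p = 0.0259), with n = 4 and 3. Esrrb, at 4.25 ± 1.17, missed the threshold narrowly (adjusted p = 0.0511), and passed when only the EB array of Ta1-12 was left out, which gave 5 calls, where 9.64% of all genes passed. Without Dutch as well, Nanog alone passed (4.25 ± 0.90, adjusted p = 0.0425, n = 3 and 3), where 3.51% of all genes passed, and Pou5f1 had 4.76 ± 1.08 (adjusted p = 0.0504). Ta1-12 was the lowest TKO EB for Pou5f1 (17.1), Nanog (20.3), Zfp42 (46.0) and Esrrb (21.3). Leaving it out had to raise their TKO mean, so these calls are not separate support for a difference. Of 14 fits that left out 1 array, Pou5f1, Nanog, Sox2, Zfp42 and Esrrb each passed in 1, the fit without TKO EB Ta1-12.

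Markers of other cell types also differed between the EB. The summed intensity of 10 fibroblast markers was 90300, 60670, 123326, 29684 and 96439 in TKO EB 2-55-2, 14-14-4, 7-4-1, Dutch and Ta1-12, against 117527, 117808 and 97990 in WT EB B21, J1 and R1. It was lowest in Dutch and 14-14-4, the lines with the most Pou5f1, and 551 to 802 in TKO ESC and 746 to 1082 in WT ESC. In TKO EB against TKO ESC 9 of the 10 rose, and in WT EB against WT ESC also 9, with 0 lower. Of all genes, 21% and 26.5% rose in these comparisons. Visceral endoderm markers summed to 15049 to 65099 in TKO EB and 19806 to 69301 in WT EB, against 680 to 4281 in TKO ESC and 818 to 1390 in WT ESC. Germ cells also express Pou5f1. Of the 8 germ cell markers on the array, Tdrd1 lay under the floor in all TKO EB and Ddx4, Dazl, Mael and Tdrd1 in all WT EB. The list summed to 795 to 16290 in TKO EB, highest in Dutch, against 544 to 7260 in WT EB. It was also high in undifferentiated cells, at 6330 to 11704 in TKO ESC and 6424 to 13496 in WT ESC. Of the 7 tested, 4 fell in TKO EB and 5 in WT EB, each against ESC, with 0 higher, where 15% and 17.4% of all genes fell. The part of these cell types in the values of the 10 genes was not tested.

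**Figure D5:**
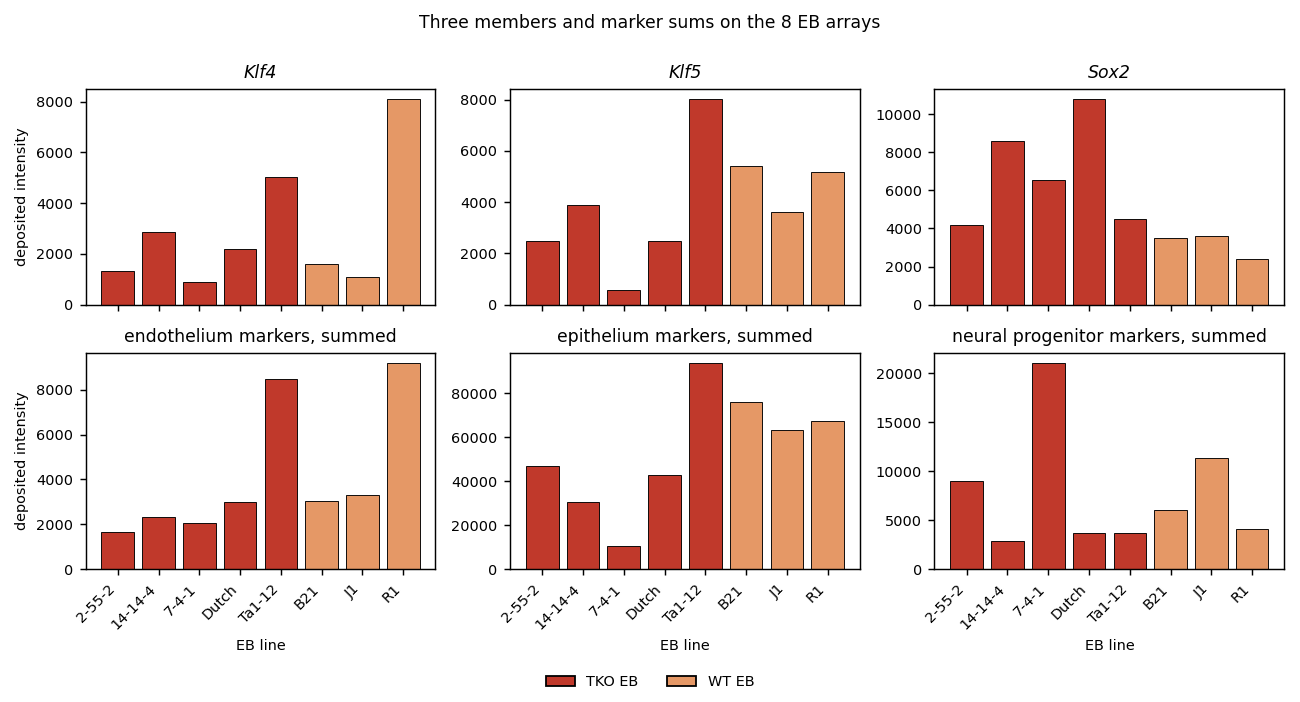
Deposited intensity of Klf4, Klf5 and Sox2 (upper bars) and summed intensity of endothelium, epithelium and neural progenitor markers (lower bars) on the 8 EB arrays, TKO EB left of WT EB. Klf4 and the endothelium sum are both highest in WT EB R1 and next in TKO EB Ta1-12, and Klf5 and the epithelium sum are both highest in TKO EB Ta1-12 and lowest in TKO EB 7-4-1.

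The endothelium list shared its 2 highest arrays with Klf4 but not its lowest, which was TKO EB 2-55-2 for the list and TKO EB 7-4-1 for Klf4. The epithelium list shared its highest and its lowest array with Klf5, but not the order of the arrays between. The endothelium markers (11 genes) summed to 1665, 2316, 2053, 3011 and 8458 in TKO EB 2-55-2, 14-14-4, 7-4-1, Dutch and Ta1-12, against 3016, 3320 and 9172 in WT EB B21, J1 and R1. The epithelium markers (12 genes) summed to 47086, 30720, 10434, 42741 and 93687 in the TKO EB lines, against 76080, 63517 and 67409 in the WT EB lines. The 2 arrays with the most Klf4 were those with the highest endothelium sums. They also had the highest visceral endoderm sums of the EB, 69301 in WT EB R1 and 65099 in TKO EB Ta1-12. TKO EB 7-4-1 had both the least Klf4 (874) and the lowest visceral endoderm sum (15049), so the match of Klf4 was not particular to endothelium. The arrays with the most and the least Klf5 were those with the highest and the lowest epithelium sums. Elsewhere the order differed: WT EB J1 had the next highest endothelium sum but a Klf4 of only 1100, and TKO EB 14-14-4 had a low epithelium sum beside a Klf5 of 3879. Klf2, also a gene of endothelium, was among the 3 lowest of the 8 EB on both arrays of highest endothelium sum, with 624 in TKO EB Ta1-12 and 690 in WT EB R1. The part of these cells in the Klf2, Klf4 and Klf5 values was not tested.

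The likeness of patterns was measured over all 14 arrays as the root mean square difference of log2 values after each gene's own mean was taken away, among 13602 other genes of 1 symbol. The measure is a description. For Pou5f1 the 3 most like genes were Nanog (0.43), Zfp42 (0.49) and Utf1 (0.51), against a root mean square of 3.62 for Pou5f1 itself. For Esrrb they were Utf1 (0.36), a chromatin protein of ESC, Tcl1 (0.42) and Dnmt3l (0.43). Utf1 was also the closest gene to Zfp42 (0.31), and had 477, 2753, 82.1, 3400 and 22.0 in the TKO EB lines, against 22.6, 35.2 and 58.4 in the WT EB lines. Pou5f1, Nanog, Zfp42 and Esrrb thus moved with Utf1 in the same order over the TKO EB.

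For the other members, the size of the changes also set which genes could be near, since the measure is not scaled. A gene of small spread, such as Sox2, cannot come near Pou5f1, whose root mean square was 3.62. Sox2, with a root mean square of 0.82 of its own, was closest to Bclaf3 (0.25), Zmynd19 (0.25) and Nptx2 (0.27). Klf2 was closest to Apobec3 (0.43), and Tfcp2l1 to Etv5 (0.53), an ETS factor that is also in the list of other pluripotency transcription factors below. Klf4 was closest to Psg23 (0.44), Muc3 (0.45) and Tek (0.48), the last an angiopoietin receptor of endothelium. Klf5 was closest to Spint2 (0.40), Itpr3 (0.41) and the epithelial cadherin Cdh1 (0.42). Tbx3 had no close neighbour, with 0.58 for Crtac1 against 1.01 for Tbx3 itself. No other member was among the 3 most like genes of Sox2, Klf2, Klf4, Klf5, Tbx3 or Tfcp2l1. Against Pou5f1, Nanog, Zfp42 and Esrrb, a smaller change and a different pattern cannot be told apart by this measure.

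The rest of the pluripotency network was read from lists, beside which 21% of all genes rose and 15% fell in TKO EB against TKO ESC, with a median of 0.09, and 26.5% rose and 17.4% fell in WT EB against WT ESC, with a median of 0.13. Of 21 other pluripotency transcription factors tested, 13 fell and 1 rose in TKO EB against TKO ESC, and 16 fell and 1 rose in WT EB against WT ESC, with median changes of -2.11 and -2.34. Zscan10 changed by -3.22 ± 0.48 in TKO EB and by -3.63 ± 0.54 in WT EB, Zfp296 by -3.68 ± 0.75 and -5.02 ± 0.84, and Nr0b1, an orphan receptor also known as Dax1, by -4.23 ± 0.98 and -5.66 ± 1.09, the last a bound since it was under the floor in all WT EB. Mybl2, a MYB factor of dividing cells, changed by -2.49 ± 0.73 in TKO EB and -4.27 ± 0.82 in WT EB. Of 14 genes with a known enhancer bound by Oct4 or Sox2, 8 fell in TKO EB and all 14 in WT EB, with median changes of -3.06 and -4.99. Among them were Utf1 (-4.06 ± 1.24 in TKO EB, -7.07 ± 1.38 in WT EB), the growth factor Fgf4 (-3.95 ± 1.15 and -6.21 ± 1.29) and Tet1, which oxidises methylcytosine (-2.75 ± 0.55 and -3.26 ± 0.61). With only the arrays of each genotype the counts were 4 in TKO EB and 14 in WT EB, where 27.2% and 46.7% of all genes passed in either direction. Without the line Ta1-12 the TKO count was 4, where 22.1% of all genes passed.

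The counts of signalling genes lay nearer to those shares of all genes (21% higher and 15% lower in TKO EB, 26.5% higher and 17.4% lower in WT EB). Of 12 genes of LIF, JAK and STAT3 signalling, 4 rose and 3 fell in TKO EB, and 6 rose and 3 fell in WT EB, each against ESC. The shared receptor subunit Il6st changed by 0.79 ± 0.17 in TKO EB and 1.47 ± 0.20 in WT EB, and the kinase Jak2 by 2.42 ± 0.38 and 2.12 ± 0.42. Stat3 rose in WT EB (1.56 ± 0.30) and had 0.19 ± 0.27 in TKO EB (adjusted p = 0.605), and the STAT3 target Pim1 fell in WT EB (-2.47 ± 0.50) and had -0.90 ± 0.45 in TKO EB (adjusted p = 0.132). Of 13 genes of FGF and ERK signalling, 1 rose and 2 fell in TKO EB, and 2 rose and 2 fell in WT EB. Of 7 genes of WNT and TCF signalling, 2 rose in TKO EB and 3 in WT EB, with 0 lower, among them Ctnnb1, the gene of β-catenin (0.22 ± 0.07 in TKO EB, 0.27 ± 0.07 in WT EB), and the kinase gene Gsk3b (1.16 ± 0.28 and 1.34 ± 0.32). Centring each array on its median left 1 WNT call in each genotype, where 35.8% of all genes passed in TKO EB and 43.9% in WT EB.

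The factors of later pluripotency went both ways. Of 14 formative and primed factors, 3 rose and 4 fell in TKO EB, and 3 rose and 7 fell in WT EB, beside the same shares of all genes. Dnmt3a was among those that rose (2.48 ± 0.37 in TKO EB, 2.53 ± 0.42 in WT EB). Its change was -1.22 without TKO EB 2-55-2 and -1.64 without WT EB J1, in fits where another probe set could stand for it. The POU factor Pou3f1 (-1.81 ± 0.50 in TKO EB, -3.94 ± 0.56 in WT EB) and Nodal, a TGF-β ligand (-2.99 ± 1.04 and -5.92 ± 1.17), fell in both genotypes, whereas Foxa2, a factor of endoderm, rose (3.64 ± 0.72 and 4.79 ± 0.81). The TKO call of Nodal (adjusted p = 0.0404) was past the threshold in 3 of 14 fits that left out 1 array (adjusted p up to 0.109) and in 10 of the other 14 alternatives. Fgf5, a gene of the primed epiblast, had 185, 113, 23.4, 80.9 and 13.4 in TKO EB 2-55-2, 14-14-4, 7-4-1, Dutch and Ta1-12, against 13.2, 24.4 and 36.0 in WT EB B21, J1 and R1, so that the 3 EB with the most Pou5f1 also had the most Fgf5. It had 6.85, 30.5 and 20.7 in TKO ESC 7-4-1, Dutch and Ta1-12, against 54.5, 286 and 493 in WT ESC B21, J1 and R1, and it fell in WT EB against WT ESC (-2.57 ± 0.76, adjusted p = 0.0161) and had 1.14 ± 0.68 in TKO EB against TKO ESC (adjusted p = 0.208), a value set by the floor, which lay above all 3 TKO ESC. Of 40 relatives of the members by family (SOX, KLF, T-box, POU and others), 11 rose and 5 fell in TKO EB, and 13 rose and 6 fell in WT EB. Sox9 (4.67 ± 0.78 in TKO EB, 5.18 ± 0.87 in WT EB), Sox5 (1.58 ± 0.29 and 2.27 ± 0.32) and the cardiac T-box gene Tbx20 (3.66 ± 0.42 and 3.64 ± 0.47) rose in both genotypes, while Tbx18 rose in WT EB (3.80 ± 0.90) and had 1.84 ± 0.81 in TKO EB (adjusted p = 0.0924). Sox9, Sox5 and Tbx18 were under the floor in all 6 ESC, so their changes move with the floor and are bounds: with a floor of 16 in place of 32, Sox5 had 2.24 in TKO EB and 3.27 in WT EB, and with a floor of 64 it had 0.59 in TKO EB, no longer past the threshold (adjusted p = 0.106), and 1.27 in WT EB. In none of these 7 lists did a gene pass between TKO EB and WT EB, between TKO ESC and WT ESC or in the interaction. In each of these comparisons 0% of all genes passed, so no list could hold a call.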

How the data were processed

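Biotin-labelled total RNA of 14 samples was measured on Affymetrix arrays, per the labels' protocols. The values are the intensity per probe set that the authors deposited, on a linear scale. The method that made them, its background correction and its normalization are not given in the sources used here. Array medians of the deposited intensity were within 0.374 of each other on the log2 scale, so no further normalization was applied. Intensities under 32 were set to 32 and log2 values were taken. A gene was represented by its probe set of highest mean over the 14 arrays, and genes above the 40th percentile of an array on at least 3 arrays were tested. Genes with a probe set of several symbols (932 probe sets) or none (9211) were left out, and symbols came from the platform annotation. A mean per group was fitted with limma 3.58.1 in R 4.3.3 (eBayes with a trend), with Benjamini-Hochberg adjustment over all genes at 0.05, in 5 comparisons that share arrays. The fit was tested on simulated data. The number of arrays limits the precision.

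Groups were read from the sample titles, and replicates are different cell lines. Same-named lines are the same cell line at both stages, so the line pairs arrays; the correlation of EB and ESC deviations within a line ran from -0.0768 to 0.197 over 14360 genes. The main comparisons were fitted without that block, and the blocked fit is given where it changed a call. The members, lists and tests were chosen with earlier results of these data known. Named genes were all members, from each list up to 4 genes of lowest adjusted p in WT EB against WT ESC and up to 2 in TKO EB against WT EB, the 3 genes of most like pattern for each member, and Rb1, Rbl1 and Rbl2; Fgf5's values on each array were given after they were seen. Alternatives changed the floor, the filter, the normalization, the choice of probe set, the spread, the block and the arrays included.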

Additional observations from a re-analysis of the deposited data

Results flagged for a closer look

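Among 85 probe sets examined in the 5 TKO EB arrays, 2 had a single array set apart by a gap of over 0.71 of the group's range of log2 values, a limit that chance passes in about 1 in 20 groups. Dnmt3a, a DNA methyltransferase gene, had 861 in TKO EB Dutch (gap 0.727 of the range), beside 1981 to 2709 in the other TKO EB, against 3002, 2948 and 1687 in WT EB B21, J1 and R1. Cdh5, the gene of endothelial cadherin, had 3120 in TKO EB Ta1-12 (gap 0.840 of the range), beside 77.1 to 140 in the other TKO EB, against 768, 774 and 2459 in WT EB B21, J1 and R1. The same array was next to WT EB R1 in Klf4 among the EB.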

How the results depend on the processing

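No member passed in TKO ESC against WT ESC or in the interaction under any alternative run, and the WT EB against WT ESC member count was 6 or 7 in each. The median change of all genes in WT EB against WT ESC was 0.13 as reported and -0.07 by quantile normalization or centring. The TKO EB against TKO ESC member count was 3 with no filter, 1 with only the groups compared, 0 without the line Ta1-12 and 0 without Ta1-12 and Dutch (chosen after seeing the data), and 0 to 7 with 1 array left out; it was 5 with a floor of 16, with the median of probe sets and without a trend. Over these fits, 19% to 43.9% of all genes passed in TKO EB against TKO ESC. The TKO EB against WT EB member count was 4 without Ta1-12, 1 without both lines, and 0 to 5 with 1 array left out. The shares of all genes were 7.64%, 3.51% and 0% to 9.64%. With the line as a fixed replicate block on 12 arrays the member counts were 7 in TKO EB and 6 in WT EB against ESC, and with a random block (correlation 0.0321) they were 6 and 6. Of all genes, 22.4% and 37.7% passed with the fixed block, and 36.7% and 44.9% with the random block.

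For the lists in TKO EB against TKO ESC, FGF was 5 by the median of probe sets, 1 with only the groups compared, 1 without Ta1-12 and 1 without both lines, and WNT was 1 by centring, without a trend, with only the groups compared, without Ta1-12, without both lines and with the fixed replicate block. WNT was also 1 by centring in WT EB, where 43.9% of all genes passed in either direction. In TKO EB against TKO ESC that share was 36% in the main fit. It was 35.8% by centring, 33.5% by the median of probe sets and 35.5% without a trend. With only the groups compared it was 27.2%, without Ta1-12 22.1%, without both lines 19% and with the fixed replicate block 22.4%. The calls over all genes thus moved too. Enhancer genes were 4 with only the groups compared, 4 without Ta1-12 and 3 without both lines; formative factors 3 and 2; relatives 7 and 9, and 10 with the replicate block; other factors 7 and LIF 2 without both lines. In TKO EB against WT EB without Ta1-12, other factors were 2, LIF 2, enhancer genes 4 and formative factors 2, where 7.64% of all genes passed. Without both lines, enhancer genes were 1, formative factors 1 and relatives 1, where 3.51% of all genes passed. With 1 array left out, TKO EB against TKO ESC gave 4 to 13 enhancer genes, 0 to 5 FGF, 1 to 2 WNT and 3 to 7 formative genes. The share of all genes passing was 25.2% to 43.9% in these fits. TKO EB against WT EB gave 0 to 4 other factors, 0 to 2 LIF, 0 to 7 enhancer and 0 to 3 formative genes. There the share of all genes was 0% to 9.64%.

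Signs turned for small changes, and for some larger ones where the probe set that stood for the gene could differ. In WT EB against WT ESC, Klf5 was -0.03 by quantile normalization, -0.08 by centring and -0.30 by the median of probe sets, which also gave Sos1 -1.01 and Rbl1 -0.76, and in TKO EB against TKO ESC Sos1 -0.55 and Stat3 -0.21, and Tfcp2l1 -0.18 in TKO ESC against WT ESC. The Klf2 interaction was 0.01 by centring and 0.24 without Ta1-12. Without Ta1-12, Stat3 was -0.11 and Thy1 -0.13 in TKO EB against TKO ESC, and Nanog 0.03 and Tbx3 -0.24 in TKO ESC against WT ESC. Without both lines, Tbx3 was 0.42, Lif -0.22 and Rbl1 0.09 in TKO EB against TKO ESC, and Tbx3 -0.72 in TKO ESC against WT ESC. Rbl1 was 0.67 in TKO EB against TKO ESC with the replicate block. With 1 array left out, Klf4 ran from -1.16 to 0.28 and Rb1 from -0.11 to 1.15 in WT EB against WT ESC. In TKO EB against TKO ESC, Thy1 ran from -0.03 to 0.71 and Rbl1 from -1.67 to 0.30. These fits chose the probe set of highest mean anew, so that another one could stand for a gene. Dnmt3a, at 2.53 ± 0.42 in WT EB and 2.48 ± 0.37 in TKO EB with all arrays, ran from -1.64 to 2.71 and from -1.22 to 2.76. It passed in all 14 of these fits in each comparison, so its range is not one of a small change. In TKO EB against WT EB, Klf2 ran from -0.21 to 0.82 and Klf4 from -0.80 to 0.64. The interaction ran from -0.58 to 0.45 for Klf2 and from -1.36 to 0.08 for Klf4. In TKO ESC against WT ESC, Nanog ran from -0.21 to 0.19, Tbx3 from -0.71 to 0.72 and Tfcp2l1 from -0.22 to 0.25. The causes were not tested. Levels under the floor of 32 have no order and limit the folds that rest on them, among them those of Esrrb, Nr0b1, Sox9, Sox5, Tbx18 and, in TKO, Fgf5, and the percent values of Pou5f1 and Nanog in Ta1-12.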
